A study of Mus musculus with 2 samples.

Results

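Nr2f1, Nr2f2 and Nr2f6 are 3 of the 8262 named genes listed in the deposited tables of N6-methyladenosine (m6A) from day 6 mouse retinal organoids. They were taken by gene name, and were chosen by earlier results on these libraries, among them the number of shared sites and the mean fraction of Nr2f1 and Nr2f6. Their sites are the listed transcript positions with at least 20 reads, matched between both libraries on transcript and position. By that rule Nr2f1 and Nr2f6 had 13 sites each among 5221 shared sites, and Nr2f2 had none. Both libraries came from wild-type organoids of the Rx:GFP line, mouse stem cells in which green fluorescent protein reports the eye-field gene Rx (Rax). Differentiation ran for 6 days with 0.1 µM AGN in a medium with serum replacement. The libraries form 1 group with n = 2, share a batch label and have no untreated or mutant counterpart, so no condition was compared. The labels do not say whether they came from separate cultures.

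The Nr2f genes encode orphan nuclear receptors, transcription factors with a zinc-finger DNA-binding domain and a ligand-binding domain for which no physiological ligand is settled. Nr2f1 (COUP-TFI) and Nr2f2 (COUP-TFII) act mostly as repressors and take part in the dorsoventral patterning of the optic vesicle, and loss of human NR2F1 function causes an optic atrophy syndrome. Nr2f6 (EAR2) is the more divergent member, best known as a repressor in lymphocytes. m6A is placed on mRNA by a nuclear complex around the methyltransferase METTL3, in short motifs with a central adenosine, and is read by proteins that influence mRNA decay and translation.

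Each listed position carries a motif of 5 bases (a 5-mer), a fraction modified and a coverage. The motifs of the 13 shared sites of each paralogue are shown with their positions, counted from the 5′ end of the transcript, because the median fraction differs between motifs. Capitals mark the central adenosine.
Nr2f1 carried ggAca at position 1448, ggAcc at positions 1916, 2045, 2553, 2696, 2757 and 2785, agAct at positions 2449, 2494 and 2647, and ggAct at positions 2503, 2520 and 2853.
Nr2f6 carried ggAca at positions 746, 875, 1520 and 1882, ggAcc at positions 405, 519 and 1911, agAct at positions 428, 1946 and 1966, and ggAct at positions 398, 651 and 857.

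The paralogues differed in these motifs. GGACA made up 1 of the 13 sites of Nr2f1 (7.69%) and 4 of the 13 of Nr2f6 (30.8%), against 38.3% of all shared sites. GGACA is the motif with the highest median fraction over all genes, at 0.688 in replicate 1 and 0.667 in replicate 2. The medians of the others were 0.267 and 0.250 at AGACT, the same at GGACT, and 0.217 and 0.227 at GGACC. Among the 47 genes with 8 or more shared sites on 1 transcript, Nr2f1 had the second lowest share of GGACA, after Id2.

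Nr2f6 carried high fractions and Nr2f1 low ones. The mean fraction over 13 sites was 0.538 in replicate 1 and 0.541 in replicate 2 for Nr2f6, and 0.281 and 0.275 for Nr2f1. The difference, Nr2f6 minus Nr2f1, was 0.262 ± 0.00646 (SD, n = 2). Part of it lies in the motifs: the medians of the same 5-mers, averaged over the sites of each paralogue, differed by 0.105 ± 0.00515 (SD, n = 2), which is 42.2% of the difference in replicate 1 and 38.0% in replicate 2. The remainder, taken as the mean gap between each site and the median of its 5-mer in the same library, was 0.157 ± 0.0116 (SD, n = 2). This gap averaged 0.161 ± 0.0106 for Nr2f6 and 0.00393 ± 0.000974 for Nr2f1 (each SD, n = 2). Over all 5221 shared sites it averaged 0.0253 in replicate 1 and 0.0296 in replicate 2.

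The SD of 0.0116 for the difference in gap describes the same sites read in 2 libraries. It does not measure how the gap varies from site to site, and the sites of the paralogues overlapped widely. Single sites of Nr2f1 had an SD of 0.191 and 0.185 around their mean gap in replicates 1 and 2, and those of Nr2f6 an SD of 0.271 and 0.234. The genes were chosen with results of these data known, and an exact paired permutation of 2 libraries cannot give a p-value under 0.5, so no test was run. The difference was 0.0896 with no coverage minimum, which adds position 197 of Nr2f1 and position 224 of Nr2f6. It was 0.113 without position 519, the Nr2f6 site farthest above its median.

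**Figure D1:**
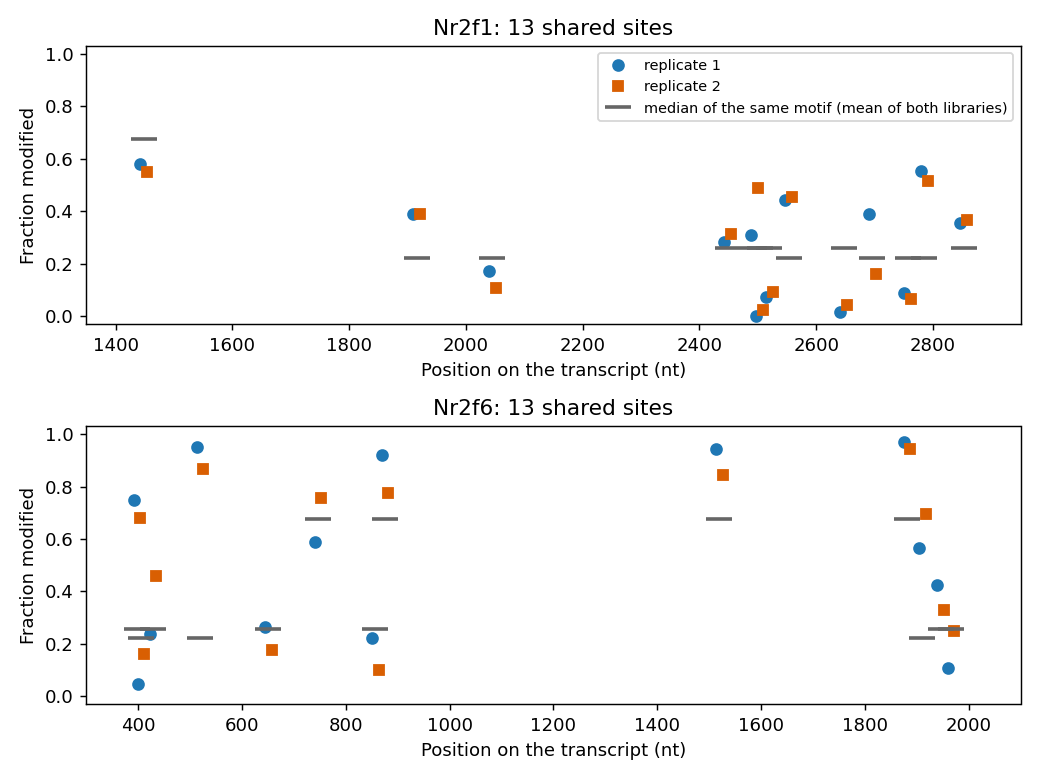
Fraction modified (vertical axis) at the 13 shared sites of Nr2f1 (top) and Nr2f6 (bottom) by position on the transcript in nucleotides, with circles for replicate 1, squares for replicate 2 and grey bars for the median of the same motif over all genes; replicates are drawn 6 nt to either side of the position. Nr2f6 reaches 0.971, while no Nr2f1 site exceeds 0.579.

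Within single motifs the mean of Nr2f6 lay above that of Nr2f1 for all 4 motifs in both libraries. At GGACA the 4 sites of Nr2f6 averaged 0.856 in replicate 1 and 0.830 in replicate 2, and the only site of Nr2f1 had 0.579 and 0.550. The lowest shared Nr2f6 site of this motif had 0.588 and 0.757, so the ranges of shared sites did not overlap, with a single site on one side. This depends on the listing: the GGACA at position 1814 of Nr2f6, listed in replicate 1 alone with 0.333 over 48 reads, lay below the Nr2f1 site. At GGACC 3 sites of Nr2f6 averaged 0.522 and 0.574, against 0.339 and 0.283 for 6 sites of Nr2f1. This order depended in replicate 1 on position 519 (0.952), since positions 405 and 1911 had 0.0455 and 0.567. At GGACT 3 sites of each averaged 0.412 and 0.320 in Nr2f6 against 0.142 and 0.161 in Nr2f1. Here the order depended in replicate 2 on position 398 (0.682), since positions 651 and 857 had 0.177 and 0.101. At AGACT 3 sites of each averaged 0.257 and 0.346 in Nr2f6 against 0.203 and 0.281 in Nr2f1. The ranges of single sites overlapped in both libraries for the 3 motifs other than GGACA, and the AGACT difference, 0.0593 ± 0.00733 (SD, n = 2), was the smallest of the 4.

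Counted by site, the contrast was modest. Of the 13 sites of Nr2f6, 7 lay above their 5-mer median in both libraries, 4 below in both and 2 on different sides. For Nr2f1 these numbers were 6, 6 and 1. Over all shared sites 44.4% lay above in both libraries and 44.6% below in both, so neither count stands far from the background. Counts of large gaps were also near the background. Gaps of more than 0.2 above in both libraries were seen at 4 sites of Nr2f6 and 2 of Nr2f1 (23.7% of all shared sites). Gaps of more than 0.2 below in both were seen at 2 sites of Nr2f1 and at none of Nr2f6 (13% of all shared sites).

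**Figure D2:**
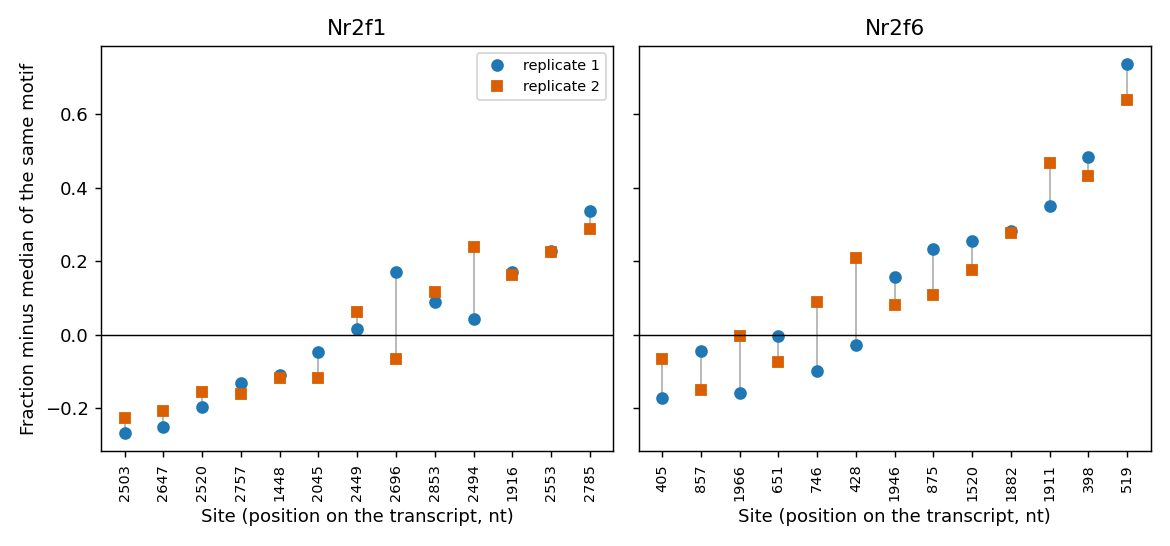
Fraction minus the median of the same motif in the same library (vertical axis) for each shared site, ordered by the mean of both libraries and named by position on the transcript in nucleotides; circles are replicate 1, squares replicate 2, and grey lines join them. Nr2f1 runs evenly from -0.267 to 0.337, whereas Nr2f6 runs from -0.171 to 0.736.

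Nr2f6 (transcript ENSMUST00000002466.8; chromosome 8, 71826767 to 71834604, gene coordinates as deposited) had 2 stretches of shared sites. The first held 8 sites between positions 398 and 875, and the second 5 sites between positions 1520 and 1966. The mean gap was 0.143 ± 0.00760 in the first and 0.189 ± 0.0155 in the second (each SD, n = 2). In the first stretch 3 sites lay above their motif median in both libraries and 3 below. Its mean rested on positions 519 and 398, with gaps of 0.688 and 0.458 averaged over the libraries. In the second stretch 4 sites lay above and 1 below. The coding and untranslated parts of the transcript were not assigned here.

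In the first stretch of Nr2f6, the GGACC at position 519 stood out: 29 reads gave 0.952 in replicate 1, and 74 reads gave 0.867 in replicate 2. That placed it at percentile 97.9 and 96.0 of all shared GGACC sites. The GGACT at position 398 had 0.750 over 29 reads and 0.682 over 63, at percentiles 87.5 and 85.1. These were the highest sites of the stretch relative to their motifs, and both kept that place in each library. The GGACA at position 875 had 0.920 over 37 reads and 0.774 over 99. The GGACA at position 746 had 0.588 over 32 reads and 0.757 over 93, and the replicates fell on different sides of the motif median.

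Low sites were interspersed with the high ones. The GGACC at position 405, 7 nt from the GGACT at 398, had 0.0455 over 29 reads and 0.161 over 63. The pair differed by 0.705 in replicate 1 and 0.521 in replicate 2 under nearly the same reads. The GGACT at position 857 had 0.222 over 36 reads and 0.101 over 99, and lay 18 nt from the GGACA at 875, which was higher by 0.698 and 0.673. The GGACT at position 651 had 0.263 over 29 reads and 0.177 over 80, and lay below its motif median in both libraries. At position 428 the AGACT had 0.238 over 29 reads and 0.460 over 63, the widest difference between replicates among the shared Nr2f6 sites.

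The second stretch of Nr2f6 was covered by more reads. The GGACA at position 1882 had 0.971 over 48 reads and 0.943 over 125, the highest fraction of any shared Nr2f site. The GGACA at position 1520 had 0.943 over 46 reads and 0.844 over 119. The GGACC at position 1911 had 0.567 over 50 reads and 0.694 over 126, at percentiles 85.2 and 90.9 of its motif. All 3 lay above the motif median in both libraries. The AGACT sites at positions 1946 and 1966 were lower. The first had 0.424 over 51 reads and 0.330 over 126, and the second 0.109 over 51 and 0.247 over 126.

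Among the 9 sites of Nr2f6 at motifs other than GGACA, 3 exceeded a fraction of 0.5 in both libraries (positions 398, 519 and 1911). Over all genes 18.7% of 3220 such sites did so. None of these 9 sites was under 0.1 in both libraries. Of the 12 such sites of Nr2f1, 1 exceeded 0.5 in both libraries and 4 were under 0.1 in both, against 14.1% over all genes.

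Nr2f1 (transcript ENSMUST00000091458.12; chromosome 13, 78337092 to 78347876, as deposited) had its sites closer to the end of the listed range. Of 13 shared sites, 10 fell within 405 nt, between positions 2449 and 2853. No other of the 47 genes with 8 or more shared sites had as many within 500 nt, and Rtl8b followed with 9. Nr2f6 had 8. The count of sites was among the values that led to the choice of these genes and is given as a description.

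High and low sites alternated along this stretch of Nr2f1. The GGACC at position 2785 had 0.553 (78 reads) in replicate 1 and 0.514 (176 reads) in replicate 2, at percentiles 84.2 and 81.7 of its motif. The GGACC at position 2757, 28 nt upstream, had 0.0870 over 78 reads and 0.0667 over 176. This pair of the same motif differed by 0.466 and 0.448. Another GGACC, at position 2553, had 0.444 over 71 reads and 0.453 over 164, which was above its median by 0.228 and 0.226.

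The lowest shared Nr2f sites, by the mean of both libraries, were also in this stretch. The GGACT at position 2503 had a fraction of 0 over 70 reads and 0.0240 over 156, at percentiles 1.69 and 2.66 of its motif. The GGACT at position 2520 had 0.0714 over 70 reads and 0.0938 over 160. The AGACT at position 2647 had 0.0167 over 74 reads and 0.0423 over 167, at percentiles 3.98 and 4.72. With the GGACC at position 2757, these were the 4 sites under 0.1 in both libraries. A neighbour 9 nt upstream of position 2503, the AGACT at 2494, had 0.310 over 71 reads and 0.489 over 158. The AGACT at position 2449 had 0.283 over 69 reads and 0.313 over 156, and the GGACT at position 2853 had 0.356 over 83 reads and 0.366 over 179. Both lay slightly above their motif medians in each library.

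Upstream of this stretch Nr2f1 had 3 shared sites. The GGACA at position 1448 had 0.579 over 37 reads and 0.550 over 103, below the median of its motif by 0.109 and 0.117. It carried the highest fraction among the shared sites of the gene while standing at percentile 40.4 and 39.7 of its motif. The GGACC at position 1916 had 0.389 over 52 reads and 0.390 over 137, and that at position 2045 had 0.171 over 56 and 0.109 over 143. The first lay above its motif median in both libraries and the second below.

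The replicates of Nr2f1 were close at most sites. The median absolute difference in fraction was 0.0256 over its 13 sites, against 0.0464 over 789 shared sites of all genes in the same coverage range. More than 0.1 separated the replicates at 2 sites, where the share over all genes in that range was 20.5%. These were position 2494, higher by 0.179 in replicate 2, and the GGACC at position 2696. The latter had 0.388 (77 reads) in replicate 1 and 0.162 (168 reads) in replicate 2, on opposite sides of its motif median. A difference of more than 0.2 with at least 50 reads in each library was seen at 20 of 1827 sites over all genes (1.09%), and position 2696 was among them. Its neighbours at 2647 and 2757, under nearly the same coverage, differed by 0.0256 and 0.0203.

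The replicates of Nr2f6 differed more. The median absolute difference was 0.115, against 0.0544 over 1102 shared sites of all genes in its coverage range. At 7 of 13 sites (53.8%) it exceeded 0.1, against 25.7% over all genes in that range and 26.3% of all shared sites. At 5 sites the fraction was higher in replicate 2 and at 8 lower. The 13 fractions were spread with an SD of 0.344 in replicate 1 and 0.304 in replicate 2. Pearson's r between replicates was 0.928 across the 13 sites of Nr2f6 and 0.901 across the 13 of Nr2f1, as descriptions of sites that share transcripts and reads.

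Coverage rose toward the 3′ end in both transcripts. Nr2f1 rose from 37 reads at position 1448 to 83 at position 2853 in replicate 1, and from 103 to 179 in replicate 2. Nr2f6 rose from 29 reads at position 398 to 51 at positions 1946 and 1966, and from 63 to 126. Replicate 2 had a median of 2.26 times the reads of replicate 1 at the Nr2f1 sites and 2.55 times at the Nr2f6 sites, against 2 times over all shared sites. By its highest coverage at any listed position, Nr2f1 stood at percentile 92.0 and 95.1 of the named genes of each library, and Nr2f6 at 85.7 and 92.4. In bulk samples fewer expressing cells and less RNA per cell cannot be told apart, and coverage at listed motifs is not a measure of expression per length.

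**Figure D3:**
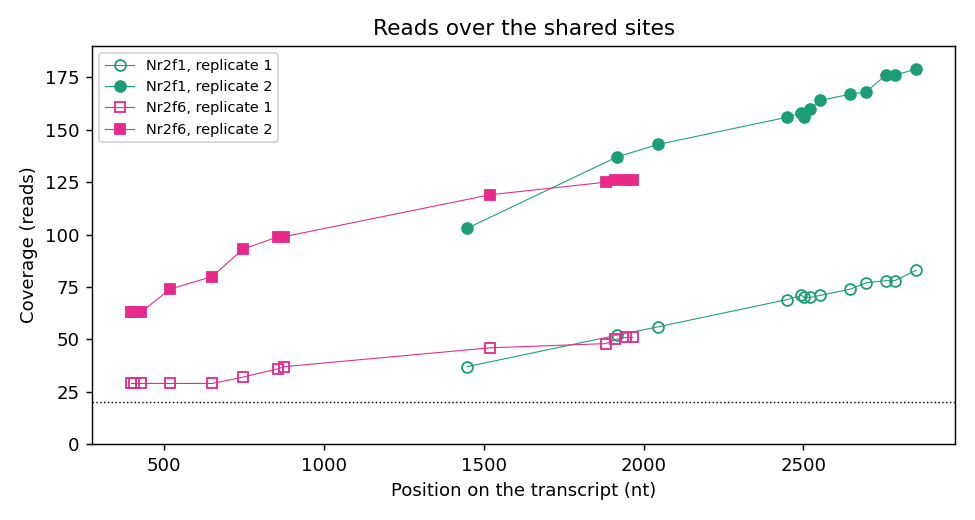
Reads (vertical axis) over each shared site by position on the transcript in nucleotides, for Nr2f1 (circles) and Nr2f6 (squares), with open symbols for replicate 1 and filled symbols for replicate 2. The dotted line marks the minimum of 20 reads, and coverage rises along both transcripts to 179 and 126 reads in replicate 2.

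The minimum of 20 reads fell between closely spaced values in Nr2f6. Just inside it were 5 sites with 29 reads each in replicate 1, at positions 398, 405, 428, 519 and 651. Just outside were positions 186 and 224, with 18 reads. The GGACT at position 224 had 0 in replicate 1 and 0.231 over 39 reads in replicate 2, and the GGACC at position 186 had 0.583 in replicate 1. In Nr2f1 the positions outside the minimum were shallower. The GGACC at position 197 had 1 over 6 reads and 0.857 over 9, and the GGACT at position 379 was listed only in replicate 2, with 0.5 over 8 reads.

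Listing itself differed between libraries. The GGACA at position 1814 of Nr2f6 had 0.333 over 48 reads in replicate 1 and was not listed in replicate 2, although the flanking sites at 1520 and 1882 had 119 and 125 reads there. Such gaps were common: of 2937 sites of replicate 1 that lay between sites of replicate 2 on the same transcript, 17.9% were not listed in replicate 2. A fraction of 0.333 at GGACA would have been below the motif median, so the mean of Nr2f6 holds only the GGACA sites that both tables list.

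Nr2f2 (chromosome 7, 70001692 to 70016483, as deposited) was listed in replicate 2 alone. It had 9 positions there, 8 on transcript ENSMUST00000032768.14 and 1 on ENSMUST00000207153.1, with 6 to 14 reads. None reached 20 reads, so the gene could not be placed in the order of the paralogues. The deepest positions had 14 reads: the GGACC at 1134 and the AGACT at 1683 had a fraction of 0, the AGACT at 1562 had 0.111, the GGACT at 1646 had 0.444 and the GGACA at 1873 had 1. Of the 9 positions, 4 lay above and 5 below the replicate 2 median of the same motif. Positions listed in both libraries with 5 to 9 reads in the shallower one differed by 0.248 in root mean square over all genes, and those with 10 to 19 reads by 0.169. At this depth single values of Nr2f2 carry little weight. Its highest coverage, 14 reads, stood at percentile 39.6 of the named genes of replicate 2.

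Among the 47 genes with 8 or more shared sites on 1 transcript, Nr2f6 had the 7th highest mean gap in replicate 1 and the 4th highest in replicate 2, and Nr2f1 was 27th and 29th. The median gene of this group had a mean gap of 0.0337 in replicate 1 and 0.0287 in replicate 2. Nearest to Nr2f6 by the distance of mean gaps over both libraries were Sox1, a transcription factor of neural progenitors (0.161 ± 0.00118), the ubiquitin ligase gene Rnf145 (0.165 ± 0.000114) and Chtf8 (0.160 ± 0.0369; each SD, n = 2). Nearest to Nr2f1 were Pfkl, which encodes the liver-type phosphofructokinase of glycolysis (-0.00339 ± 0.00695), Ctnnb1, which encodes beta-catenin (-0.00941 ± 0.00506), and Igfbp5, an insulin-like growth factor binding protein (0.0168 ± 0.0168; each SD, n = 2). The likeness is of 2 mean values per gene.

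**Figure D4:**
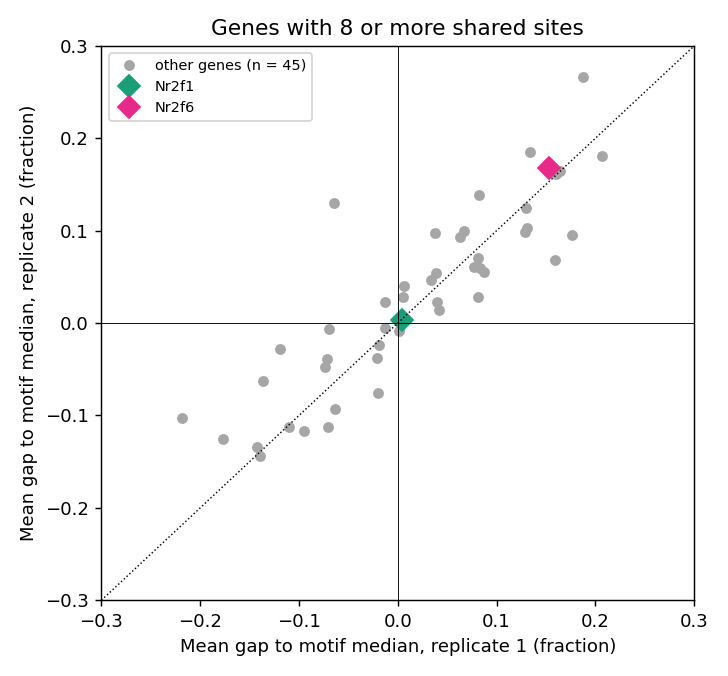
Mean gap to the motif median in replicate 1 (horizontal axis) and replicate 2 (vertical axis), both in units of fraction, for the 47 genes with 8 or more shared sites; grey points are the other 45 genes and the dotted line marks equal values. Nr2f6 lies at 0.153 and 0.168, in the upper part of the cloud, and Nr2f1 at 0.00462 and 0.00324, near its middle.

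Most other nuclear receptors were unlisted or shallow in these libraries. Of the 8262 named genes listed in either library, 1887 had a shared site, a base that leaves out unlisted genes. Of 45 receptor genes outside the Nr2f group, 7 were listed in replicate 1 and 8 in replicate 2, and 1 had a shared site. That gene was Nr2e1 (Tlx), a receptor of retinal and neural progenitors. Its AGACT at position 2937 had 0 over 24 reads and 0.103 over 55, below the motif median in both libraries. The retinoid X receptor genes Rxra and Rxrb, which encode common dimerization partners of nuclear receptors, reached at most 11 and 7 reads in replicate 1 and 16 and 24 in replicate 2.

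Of 18 cofactor genes, 7 were listed in replicate 1 and 11 in replicate 2. Shared sites were found in 3, all of them histone deacetylases of co-repressor complexes, beside 1887 of the 8262 named genes listed. Of their 7 shared sites, 6 lay above and 1 below the motif median in both libraries, against 44.4% above over all shared sites. The median gap was 0.136 in replicate 1 and 0.154 in replicate 2, against 0 in both over all sites with 1 transcript per gene. Hdac2 had 4 shared sites with a mean gap of -0.0222 ± 0.0182, although 3 of them lay above their medians, and Hdac3 had 2 with 0.210 ± 0.0358 (each SD, n = 2). Hdac1 had 1, a GGACC at position 1837 with a fraction of 1 over 26 and 48 reads. Reads of Hdac1 can be shared with the pseudogene Hdac1-ps, which is also listed, so this site is uncertain. The co-repressor gene Ncor1 did not reach 20 reads in either library.

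Of 17 genes of optic vesicle patterning, the process in which Nr2f1 and Nr2f2 act, 11 were listed in replicate 1 and 15 in replicate 2. Shared sites were found in 6, beside 1887 of the 8262 named genes listed. The 36 sites of these 6 genes lay above the motif median in both libraries at 19 positions and below at 15. That is near the 44.4% above and 44.6% below over all shared sites. The median gap was 0.0291 in replicate 1 and 0.0205 in replicate 2, against 0 in both over all sites with 1 transcript per gene. By mean gap, Rax had 0.112 ± 0.00849 over 5 sites and Six6 0.110 ± 0.000495 over 5. Vax2, a ventral retinal factor, had 0.0609 ± 0.0401 over 4 sites and Sox2 had 0.0232 ± 0.0235 over 8. Lhx2 had -0.0766 ± 0.0337 over 7 sites (each SD, n = 2). Nr2f6 lay above each of these 5 genes by mean gap, and Nr2f1 lay above Lhx2 and below the other 4.

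As a check of the labelled tissue, 7 of 8 eye-field and retinal progenitor markers were listed in each library. A position with at least 20 reads was found for 4 of the 8 in replicate 1 and 6 in replicate 2. None of 5 pluripotency, 4 mesoderm or 4 endoderm markers was listed in either library. Of 4 neuronal markers 1 was listed in each library, below 20 reads, and of 4 pigment epithelium markers 1 and 3 were, also below 20 reads. A gene with fewer than 5 reads at every examined motif could not be listed. The replicate 1 table held 26441 positions, of which 6463 had at least 20 reads, and that of replicate 2 held 50099 and 16212.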

How the data were processed

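Per the labels' protocols, each library was made from 1 µg of poly(A) RNA with the RNA002 kit and read natively on 1 flow cell (about 48 h). Coverage is the deposited count of reads at a transcript position, 5 or more throughout. The fraction modified is a deposited fraction whose denominator is not stated. In replicate 1 39.4% and in replicate 2 36.0% of the values correspond to a whole number of covering reads (tolerance 6e-05), so no read counts were derived and no intervals set. The submitters' processing notes name mm10, but the listed starts of Nr2f1, Nr2f2 and Nr2f6 lie 148121, -350254 and 452649 bases from those of RefSeq GRCm38.p6, so the build of the gene coordinates is unsettled. Base caller, aligner and modification caller are not given in the sources used here. Positions are the listed interval ends. Of 44 sites whose motif was found just after a RefSeq transcript start, 20 had the listed end on the 4th base of the motif and 2 on the adenosine.

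Every listed position with 20 or more reads counts as a site, since the tables hold no call. Whether all examined positions are listed is not stated. Medians per 5-mer were taken over the 5221 shared sites of each library, with python 3.11.15, pandas 2.3.3 and numpy 2.4.6. The procedure was tested on simulated data with known gaps. Named are the members, genes of 3 lists with a shared site (some are not reported here), and the 3 genes nearest to Nr2f1 and to Nr2f6. Ncor1, Rxra, Rxrb, Id2 and Rtl8b were named after their values were seen. The members and lists were chosen with earlier results of these data known. Alternatives changed the coverage minimum, the 5-mer reference, the weighting of sites, the transcripts and the replicates used. The minus tables hold no Nr2f position and were not used further.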

Additional observations from a re-analysis of the deposited data

How the results depend on the processing

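The difference between Nr2f6 and Nr2f1 stayed above 0 in 13 of 13 alternatives that used both replicates, from 0.0896 to 0.262. These alternatives reuse largely the same sites and reads, and some are in other units. The genes were chosen with their mean fractions known, so the shared sign is no independent support for a difference. With no coverage minimum it was 0.0896, with mean gaps of 0.134 for Nr2f6 and 0.0445 for Nr2f1. With 50 reads it was 0.138, resting on 3 shared sites of Nr2f6, 2 of them above their medians in both libraries, and the gap of Nr2f1 was 0.0310. With percentiles within the 5-mer minus 0.5 the values were 0.175, 0.122 for Nr2f6 and -0.0531 for Nr2f1. With 5-mer means they were 0.187, 0.124 and -0.0621. Without a correction for the 5-mer they were 0.262 for the difference and -0.0907 for Nr2f1. The median over sites gave 0.133 for Nr2f6 and -0.0248 for Nr2f1. The gap of Nr2f1 was 0.00578 with medians over all sites of each library and 0.00852 with weights by coverage. Alternatives chosen after seeing the data gave a difference of 0.197 with each 5-mer weighted equally, 0.113 without position 519 of Nr2f6 (gap 0.117), and a gap of -0.000156 for Nr2f1 without position 2696. The gap of Nr2f1 therefore has no stable sign. Apart from the fewer or added sites that each minimum leaves, the cause of these shifts was not tested. Of 67 alternative values, 44 stayed within the replicate spread, within 1.5 times a count or, for the replicate difference, within its interquartile range. The 44 include the gaps and differences with a replicate left out, which could not fall outside the replicate spread. Leaving out a replicate gave differences of 0.149 to 0.165, gaps of 0.153 to 0.168 for Nr2f6 and 0.00324 to 0.00462 for Nr2f1, and 7 to 9 and 6 to 7 sites above their medians. With 2 libraries such a shift is always under 1 SD, so it is no sign of stability. No paired analysis was possible because the samples form 1 group, with no other group to pair them with; the paralogue difference was taken within each library. Depth limits Nr2f2 entirely and Nr2f6 in replicate 1, where 10 of its 13 shared sites had fewer than 50 reads.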
